A study of Mus musculus with 6 samples.

Results

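Axl, Mertk and Tyro3, the TAM receptor tyrosine kinases, and their ligands Gas6 and Pros1 (protein S) are described here across the leukocytes of the central nervous system in experimental autoimmune encephalomyelitis (EAE), a mouse model of multiple sclerosis in which an autoimmune attack on myelin is induced. The members were taken by gene symbol, 5 of the 28692 genes in the count tables, and all 5 had at least 1 unique molecular identifier (UMI, a tag that counts RNA molecules) in each library. The groups were C57BL/6 wild-type mice (WT) and C57BL/6 mice lacking the microRNA miR-155 (KO). Each was taken unimmunized, called day 0, and on days 13 and 21 after EAE induction. Live leukocytes were flow-sorted as DAPI-negative, CD45-positive cells. Each of the 6 groups gave 1 droplet library that reads the 3′ ends of transcripts. The labels give 5 mice a group and do not state whether they were pooled. They also name the tissue as brain, while the protocol adds spinal cord. The sample titles start with a number that is common to the WT and KO library of a day and changes between days, so day and whatever batch that number marks cannot be told apart.

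TAM receptors sit on macrophages, microglia and some dendritic cells and do not bind dying cells directly. Gas6 and Pros1 carry a vitamin K-dependent domain that binds phosphatidylserine on apoptotic cells or myelin debris, and their other end binds the receptor, so the ligand bridges a corpse to a phagocyte. Receptor signalling promotes engulfment and also restrains inflammatory responses, in part through the suppressors of cytokine signalling Socs1 and Socs3, together with the type I interferon receptor. Mertk is a marker of resting, debris-clearing macrophages and microglia, while Axl is known to be induced by interferon and other inflammatory signals. Gas6 binds all 3 receptors, and Pros1, which also acts as an anticoagulant in plasma, binds Mertk and Tyro3.

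The sequence of the deleted microRNA is shown because its seed, bases 2 to 8 in capitals, pairs with the transcripts it represses. It is taken from RefSeq, build GRCm38.p6, chr16:84714143-84714165, plus strand.
mmu-miR-155-5p: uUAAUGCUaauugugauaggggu
The DNA letters that pair with this seed, AGCATTA, and the other 7-base match, GCATTAA, were searched in the annotated 3′ untranslated regions. Axl (1389 bases), Mertk (1227 bases), Tyro3 (1070 bases), Gas6 (372 bases) and Pros1 (1153 bases) held 0 of either. Among 21025 genes with such a region, of median length 961 bases, 12.6% held a match. None of the 5 members therefore carried these letters in the transcript examined, which says nothing about sites elsewhere in the transcript.

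The 250 bases upstream of Axl and of Gas6 are shown because these members were furthest apart, in opposite directions, between the knockout and wild-type microglia-like cells of day 21 as classed here, and because Axl is an interferon-inducible gene elsewhere. Capitals mark the GC box, GGGCGG, or CCGCCC where it lies on the other strand. The windows are RefSeq's, build GRCm38.p6, each printed on the strand of its gene, chr7:25788734-25788983, minus strand, for Axl and chr8:13494536-13494785, minus strand, for Gas6.
Axl: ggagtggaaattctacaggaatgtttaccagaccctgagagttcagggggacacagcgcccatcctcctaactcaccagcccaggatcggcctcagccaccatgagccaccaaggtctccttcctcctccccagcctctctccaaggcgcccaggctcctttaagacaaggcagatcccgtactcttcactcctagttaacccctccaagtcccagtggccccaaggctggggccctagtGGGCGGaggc
Gas6: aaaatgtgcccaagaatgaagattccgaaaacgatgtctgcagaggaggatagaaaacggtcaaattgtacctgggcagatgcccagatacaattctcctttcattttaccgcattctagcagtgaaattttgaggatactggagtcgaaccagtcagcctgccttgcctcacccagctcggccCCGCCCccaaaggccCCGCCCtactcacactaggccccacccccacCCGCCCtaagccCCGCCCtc
The Axl window held 1 GC box and the Gas6 window 4, and 32.7% of 32851 promoters of this length held at least 1. The windows of Mertk, Tyro3 and Pros1 held 3, 3 and 5. The Tyro3 window, chr2:119799264-119799513, lies inside the gene span given below and not upstream of it. The interferon-stimulated response element, searched as GAAA, any 2 bases and GAAA again, was in 0 of the 5 windows, against 2.98% of all promoters. The STAT site TTCNNNGAA was in 1 window, that of Pros1, against 7.02% of promoters, and the AP-1 site TGANTCA and the PU.1 site GAGGAAGT were in 0 of the 5, against 6.75% and 2.44%. These are letter matches in a short window and not measured binding. On GRCm38 the genes lie at chr7:25757273-25788705 (Axl, minus strand), chr2:128698956-128802894 (Mertk, plus), chr2:119797733-119818104 (Tyro3, plus), chr8:13465374-13494490 (Gas6, minus) and chr16:62854307-62929346 (Pros1, plus).

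The libraries held 6321841 to 24243660 UMIs over 1681 to 5630 barcodes, 20030 in all, and any pair of libraries shared 5 to 32 barcodes. Mir155hg, the host transcript of miR-155, was read first as a check of the labels: WT had 2, 45 and 59 of its UMIs on days 0, 13 and 21, and KO had 0, 0 and 1. Cells were put into classes by counting detected marker genes, and the classes are called microglia-like and so on. Barcodes that met more than 1 class, 3.10% to 23.7% of a library, were set aside as possible doublets. That step touched the members: on day 21 in WT such barcodes carried 66.1% of all Mertk UMIs, against 25.7% in KO. Results that turn on it are given with these barcodes put back. The microglia-like class held 1343, 903 and 548 WT cells and 1216, 446 and 1676 KO cells on days 0, 13 and 21, and the monocyte/macrophage-like class held 91, 604 and 733 WT and 45, 597 and 234 KO cells. Within the microglia-like class the summed microglial markers ran from 13550 to 37762 CPM (the usual depth-scaled count, each gene's UMIs over the UMI total of the class) and were highest on day 0. Only 8 cells in all passed the gate for border-associated macrophages, the macrophages of meninges and perivascular spaces, so no such class was analysed.

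Levels below are CPM of the UMIs summed over the cells of a class. Because only transcript ends are read, a level is not divided by transcript length, and levels are compared between classes or libraries of the same gene. Intervals in brackets are 95% and cover counting error only. Among the classes analysed, Mertk, Gas6 and Pros1 were highest in the microglia-like class, while Axl was shared with monocyte/macrophage-like cells. The plot of levels by class shows this division.

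**Figure D1:**
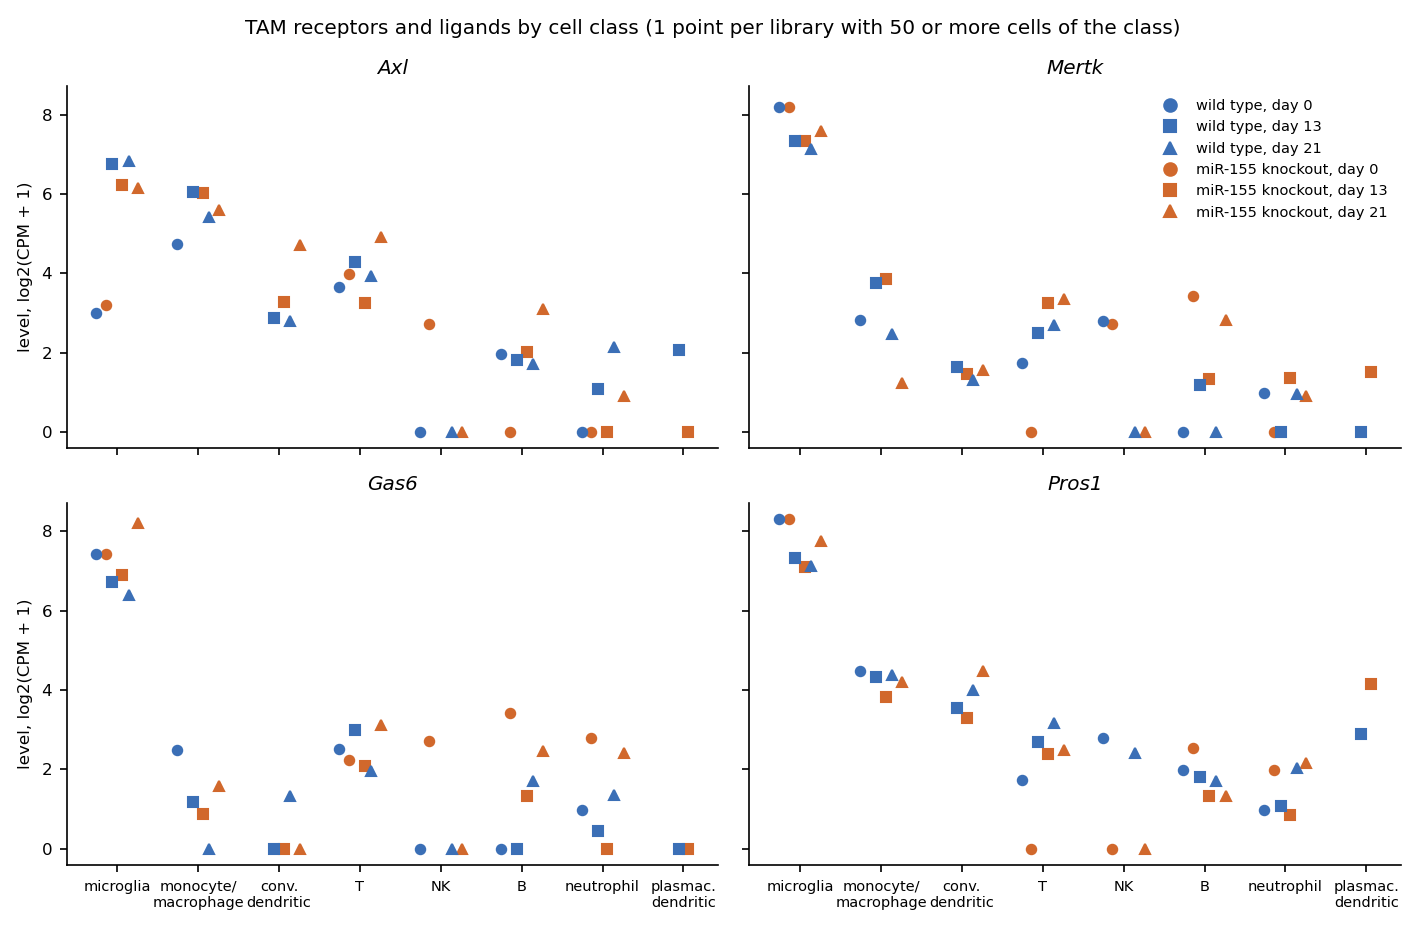
Level of each gene (CPM, log scale) in each cell class with 50 or more cells, 1 point per library, for WT and KO libraries. Mertk, Gas6 and Pros1 points of the microglia-like class lie above those of all other classes, while Axl points of microglia-like and monocyte/macrophage-like cells of days 13 and 21 lie close together.

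Mertk, the receptor most tied to debris clearance, stood at 293, 160 and 139 CPM in WT microglia-like cells on days 0, 13 and 21 and at 292, 160 and 191 CPM in KO. In monocyte/macrophage-like cells the WT values were 6.09, 12.5 and 4.58 CPM, and KO on days 13 and 21 gave 13.5 and 1.33 CPM. The lowest microglial library was thus well above the highest monocyte library. Across the 4 libraries of days 13 and 21 the log2 difference was 4.01 (SE 0.330), with an adjusted p of 5.79e-06 by edgeR's quasi-likelihood test with Benjamini-Hochberg adjustment. Conventional dendritic-like cells had 1 Mertk UMI in each of those 4 libraries. The microglia-like class was higher than them (adjusted p = 3.14e-10, edgeR), and no fold is given against a level this near 0.

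Among the classes analysed, Gas6 was nearly confined to the microglia-like class, at 83.7 to 297 CPM. Barcodes set aside for meeting more than 1 class carried 40.1% of all Gas6 UMIs in WT and 45.4% in KO on day 13. On day 21 they carried 59.1% and 25.4%. Gas6 was at 0 to 2.00 CPM in the monocyte/macrophage-like libraries of days 13 and 21. In the dendritic-like class it had 1 UMI in 1 of the 4 libraries of those days. T-like cells gave 2.87 to 7.63 CPM, and the share of neutrophil-like cells with a Gas6 UMI reached 2.67%, in a class not known as a source of Gas6. A fold of Gas6 against classes this near 0 depends on the prior count of the fit and is not given. The microglia-like class was higher than both other myeloid classes, with adjusted p = 5.10e-08 against monocyte/macrophage-like and 1.97e-09 against dendritic-like cells (edgeR's quasi-likelihood test, Benjamini-Hochberg).

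Pros1 was at 135 to 316 CPM in microglia-like cells and at 13.2 to 21.3 CPM in monocyte/macrophage-like cells. The 2 sets of libraries did not overlap, and the log2 difference on days 13 and 21 was 2.97 (SE 0.148, adjusted p = 2.01e-07, edgeR). Unlike Gas6, Pros1 kept a readable level in conventional dendritic-like cells, at 8.74 to 21.5 CPM. Plasmacytoid dendritic-like cells of day 13 gave 16.8 CPM from 9 UMIs in KO, and 2 UMIs in WT. Pros1 is also known from activated T cells, and here T-like cells gave 0 to 8.02 CPM, from at most 28 UMIs in a library.

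Axl on days 13 and 21 was at 107 and 112 CPM in WT and 73.6 and 70.5 CPM in KO microglia-like cells. Monocyte/macrophage-like cells of the same libraries gave 64.7 and 42.1 CPM in WT and 64.1 and 47.3 CPM in KO. Each library had more Axl in its microglia-like class, but the gap was narrow in KO on day 13, and the log2 difference was 0.51 (SE 0.185, adjusted p = 0.0360, edgeR). Without the WT day 21 library it was 0.25 with an adjusted p of 0.204, and the call was also lost without WT day 13 and by DESeq2. In this comparison all 4 members tested were called, where 59.9% of 10414 genes were called in either direction, so a call alone says little here. Dendritic-like cells stood lower for Axl than both, at 5.95 to 25.4 CPM, with a log2 difference of 2.34 from monocyte/macrophage-like cells (SE 0.336, adjusted p = 0.000220, edgeR). With Leiden classes, in which dendritic cells had 19.6 to 39.0 CPM, that difference was 0.85 (adjusted p = 0.0459, edgeR). Mertk was also called between those classes (adjusted p = 0.0149, edgeR), but 4 of 7 alternatives kept the call, and with Leiden classes the log2 difference was -0.26 (adjusted p = 0.631, edgeR). Pros1 did not pass (0.42, adjusted p = 0.302, edgeR), where 32.4% of 7860 genes were called. With dendritic-like cells as the other side, all 4 members were called in microglia-like cells, where 52.2% of 8377 genes were.

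Tyro3, the receptor best known from neurons and from some lymphocytes and dendritic cells, was at the edge of detection. The libraries held 2, 14 and 16 Tyro3 UMIs in WT and 2, 11 and 5 in KO on days 0, 13 and 21. In microglia-like cells it had 1 UMI in 6132 cells. T-like cells carried 1, 4 and 5 UMIs in WT and 1, 3 and 1 in KO, which is 1.43 to 3.71 CPM, and most other Tyro3 UMIs were in barcodes set aside for meeting more than 1 class. It passed the count filter in no comparison and was not tested.

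The course of the receptors over EAE was opposite in microglia-like cells: Axl rose on both days and Mertk fell on day 13. Axl stood at 7.02 (4.80 to 9.91), 107 (95.5 to 120) and 112 (95.6 to 131) CPM in WT on days 0, 13 and 21. In KO it was at 8.16, 73.6 (60.5 to 88.6) and 70.5 (63.4 to 78.3) CPM. All 4 libraries of EAE days were far above both day 0 libraries, and within EAE both WT libraries were above both KO libraries. The log2 change from day 0 was 3.79 on day 13 (SE 0.228, adjusted p = 1.57e-05, edgeR) and 3.81 on day 21 (SE 0.225, adjusted p = 2.73e-05, edgeR). It kept that call in all 11 alternative settings on each day, at 3.32 to 4.19 and 3.29 to 4.22.

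The share of microglia-like cells with an Axl UMI went the same way, from 1.49% in WT and 1.97% in KO on day 0 to 24.8% and 17.3% on day 13 and 23.2% and 15.6% on day 21. After each cell was thinned to 1500 UMIs the shares were 0.596% and 0.987%, then 13.1% and 8.97%, then 15.0% and 9.13%. In B-like cells, which are not known to express Axl, the unthinned share was 0% to 0.806% and in neutrophil-like cells 0% to 1.001%. Median depths were 1939 to 2525 UMIs in B-like, 2826 to 5298 in neutrophil-like and 2189.5 to 3207.5 in microglia-like cells. On day 0 itself the B-like shares were 0.806% in WT and 0% in KO, and the neutrophil-like shares 0% in both. The microglia-like shares of that day were above these, at 1.49% (0.912% to 2.29%) and 1.97% (1.27% to 2.92%). The intervals overlapped, reaching 4.41% and 4.06% in B-like and 1.51% and 4.80% in neutrophil-like cells of WT and KO. On day 0, 13 WT and 22 KO microglia-like cells had a border-associated macrophage marker UMI. Axl was at 82.2 and 134 CPM in them and at 5.79 and 5.16 CPM in the others.

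Mertk moved down from 293 and 292 CPM on day 0 to 160 in both genotypes on day 13, with 139 in WT and 191 in KO on day 21. Neither EAE day overlapped day 0. The log2 change on day 13 was -0.63 (SE 0.162, adjusted p = 0.0191, edgeR) and on day 21 -0.57 (adjusted p = 0.0517, edgeR), just short of the threshold of 0.05. The day 13 call was kept in 7 of 11 alternatives, at -0.81 to -0.53, with adjusted p up to 0.350 (edgeR or DESeq2). In thinned cells the share with a Mertk UMI was 33.9% and 34.8% on day 0, 24.4% and 23.5% on day 13 and 18.8% and 25.1% on day 21, in WT and KO. All 4 EAE shares were below both day 0 shares, and the WT share of day 21 was the lowest.

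Pros1 was at 314 and 316 CPM in WT and KO on day 0, 160 and 135 on day 13, and 139 and 215 on day 21. Its values on day 0 were above those of all EAE libraries. The log2 change was -0.85 on day 13 (SE 0.194, adjusted p = 0.0112, edgeR) and -0.57 on day 21, which did not pass (adjusted p = 0.0889, edgeR). The day 13 call was kept in 9 of 11 alternatives, at -1.20 to -0.63. Gas6 behaved otherwise: 171 and 172 CPM on day 0, 105 and 118 on day 13, then 83.7 in WT and 297 in KO on day 21. The KO library of day 21 was the highest of all 6 and the WT library of that day the lowest. Gas6 was called in neither contrast with day 0 (-0.39, adjusted p = 0.425 on day 13 and 0.28, adjusted p = 0.649 on day 21, edgeR). Without KO day 21 the latter value became -0.71, and without WT day 21 it became 0.98, so its sign depended on the genotype kept.

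**Figure D2:**
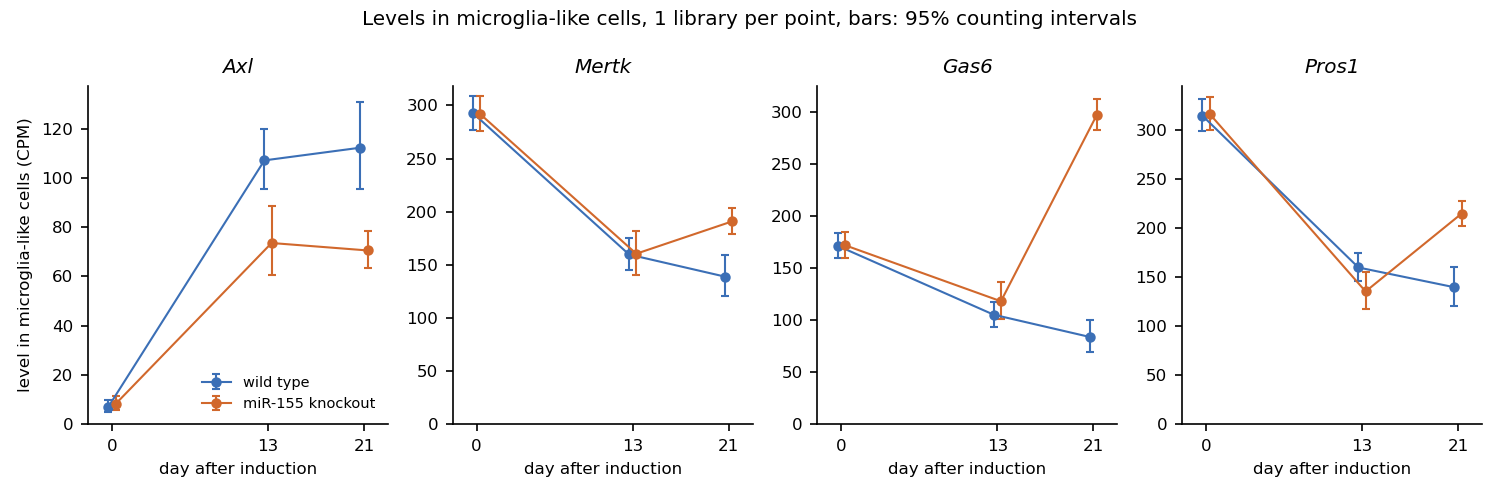
Level of Axl, Mertk, Gas6 and Pros1 (CPM) in microglia-like cells against day after EAE induction, WT and KO, with 1 library per point and bars for the exact Poisson 95% interval. Day 0 mice were unimmunized. Axl climbs from 7.02 and 8.16 CPM on day 0, Mertk and Pros1 drop by day 13, and Gas6 separates on day 21 with KO at 297 and WT at 83.7 CPM.

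In microglia-like cells 3 of the 4 members tested were called on day 13 against day 0, where 26.6% of 10424 genes were, 15% higher and 11.6% lower. On day 21 against day 0 only Axl was called, where 11.2% of genes were and 7.98% were higher. Between days 21 and 13 no member and 0% of genes were called, though 1348 genes had an unadjusted p under 0.05 and DESeq2 called 65. The libraries of the 2 genotypes of a day served as its replicates in these tests, so p-values measure the spread between these libraries, and a gene whose genotypes diverge, as Gas6 did, has a wide error. The class itself changed with EAE: T-cell markers in it were at 24.1 and 12.7 CPM on day 0 and at 30.4 to 367 CPM later, and monocyte markers went from 92.1 and 120 CPM to 225 to 835 CPM. Their part in the changes of Axl, Mertk and Pros1 was not tested.

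Within a day, KO and WT are 1 library each, so differences have no replicate check and no test. A gene is counted as apart when its CPM differ 1.5-fold or more and reach 10 CPM in either library. On day 0 the genotypes were alike for 3 members: the KO-to-WT ratio was 0.997 for Mertk, 1.003 for Gas6 and 1.01 for Pros1. Axl was at 1.16 (0.696 to 1.95) under 10 CPM, an interval too wide to show likeness, and Tyro3 had 0 UMIs in both libraries. None of the members was counted as 1.5-fold apart, where 3.05% of 7805 genes were. On day 13 Mertk was at 1.005, Gas6 at 1.12 (0.928 to 1.36) and Pros1 at 0.847 (0.715 to 1.001), and Axl was lower in KO at 0.687 (0.548 to 0.856), short of 1.5-fold. None of the members was counted, where 9.95% of 7537 genes were.

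On day 21 the members went apart in opposite directions. Gas6 was higher in KO at a ratio of 3.55 (2.95 to 4.31), Pros1 was higher at 1.54 (1.32 to 1.80), and Axl was lower at 0.628 (0.520 to 0.761). Mertk, at 1.38 (1.18 to 1.61), was short of the cut-off. So 3 of 4 members were 1.5-fold apart, where 18.1% of 7622 genes were, 10.6% higher and 7.5% lower in KO. The median gene had a log2 ratio of 0.07 on that day, a smaller shift than that of any of these 3 members. In cells thinned to 1500 UMIs, 30.2% of KO and 11.7% of WT cells had a Gas6 UMI, and 27.5% and 21.2% had a Pros1 UMI.

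With the set-aside barcodes put back, the day 21 ratios were 4.17 for Gas6, 1.93 for Pros1, 1.63 for Mertk and 0.811 for Axl, so Axl was then no longer 1.5-fold apart and Mertk was. On day 13 the same step took Axl to 0.656, past the cut-off. Classes built from Leiden clusters, without the members among the clustering genes, gave 3.38 for Gas6, 0.541 for Axl and 1.43 for Pros1 on day 21, so Pros1 was then short of the cut-off. Of the 3 members counted on day 21, Gas6 alone was past the cut-off under both of these settings.

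Other cells' RNA differed between the same libraries. On day 21 T-cell markers in microglia-like cells were at 367 CPM in WT and 30.4 in KO, monocyte markers at 816 and 225 CPM, and border-associated macrophage markers at 5.58 and 39.9 CPM. In KO on day 21, 128 of 1676 microglia-like cells had a border marker UMI, and Gas6 was at 612 CPM in them and at 263 CPM in the others. Leaving out, in both genotypes, every cell with a border marker UMI gave a Gas6 ratio of 3.12. Leaving out every cell with a T, monocyte or border marker UMI left 190 WT and 990 KO cells, and the ratios were 2.83 (2.02 to 4.07) for Gas6, 1.53 for Pros1, 1.36 for Mertk and 0.627 (0.444 to 0.904) for Axl. With cells carrying monocyte marker UMIs left out alone, Axl was at 0.753 (0.547 to 1.05). On day 13 the same removal of all 3 lists took the Axl ratio to 0.882 (0.529 to 1.44), which includes 1.

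The microglia-like cells of the 2 genotypes also lay in different clusters on day 21. Of the Leiden microglial cells, KO had 1449 of 1716 in the cluster numbered 2 and 116 in the cluster numbered 4, while WT had 237 and 249 of 504. In cluster 2 Axl was at 96.6 CPM in WT and 60.3 in KO, a ratio of 0.624 (0.458 to 0.865). In cluster 4 Axl was at 165 and 174 CPM, a ratio of 1.05 (0.756 to 1.45), so within it the genotypes did not differ beyond counting error. Gas6 was higher in KO in both, at 2.93 (2.22 to 3.96) in cluster 2 and 3.01 (2.11 to 4.35) in cluster 4. On day 13, when most cells of both genotypes were in cluster 4, Axl in that cluster was at 123 CPM in WT and 89.6 in KO (0.727, 0.570 to 0.919).

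MHC class II, the antigen-presenting complex raised on activated microglia, splits the genotypes too, in opposite directions on days 13 and 21. On day 13, 71.1% of KO microglia-like cells were above the WT median of that day. On day 21 only 14.3% of KO cells were above the WT median of day 21. Among those 239 cells and their WT counterparts the Gas6 ratio was 1.74 (1.26 to 2.43) and the Axl ratio 0.824 (0.606 to 1.12). At or below the median the ratios were 3.70 for Gas6 and 0.671 (0.512 to 0.892) for Axl. For interferon-stimulated genes, 29.1% of KO cells were above the WT median. The Gas6 ratio was 5.59 above it and 2.59 at or below it. The Axl ratio was 0.736 (0.570 to 0.953) above it and 0.671 (0.499 to 0.914) at or below it. Gas6 was therefore higher in KO in each of these 4 subsets, by amounts that differed. Axl was lower in KO in each of them but 1.5-fold apart in none. Its interval included 1 only above the MHC class II median.

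Over all days the genotype test, with day as a block and the days as replicates, called none of the members in microglia-like cells, where 0.0288% of 10424 genes were called and 330 had an unadjusted p under 0.05. The log2 difference of Axl, KO minus WT, was -0.51 (SE 0.167), with an unadjusted p of 0.0130 and an adjusted p of 1.0 by edgeR's quasi-likelihood test. Gas6 was at 0.59 (SE 0.283, unadjusted p = 0.0635, edgeR), and it dropped to 0.06 without the KO day 21 or the WT day 21 library. Mertk and Pros1 were at 0.11 and 0.09. Gas6 over all days thus rested on day 21.

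Gas6 on day 21 in KO was also unevenly spread over cells. Cells with 4 or more Gas6 UMIs numbered 15, 3 and 0 in WT and 11, 5 and 98 in KO on days 0, 13 and 21, which is 1.12%, 0.332% and 0% against 0.905%, 1.12% and 5.85%. The 98 KO cells carried 35.6% of the Gas6 UMIs of that library's microglia-like class, with a highest count of 13 in a cell. Their median total was 3845.5 UMIs against 2634.5 in the rest, and the part of depth in their Gas6 count was not tested. The plot of UMIs per cell shows this tail beside the other libraries.

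**Figure D3:**
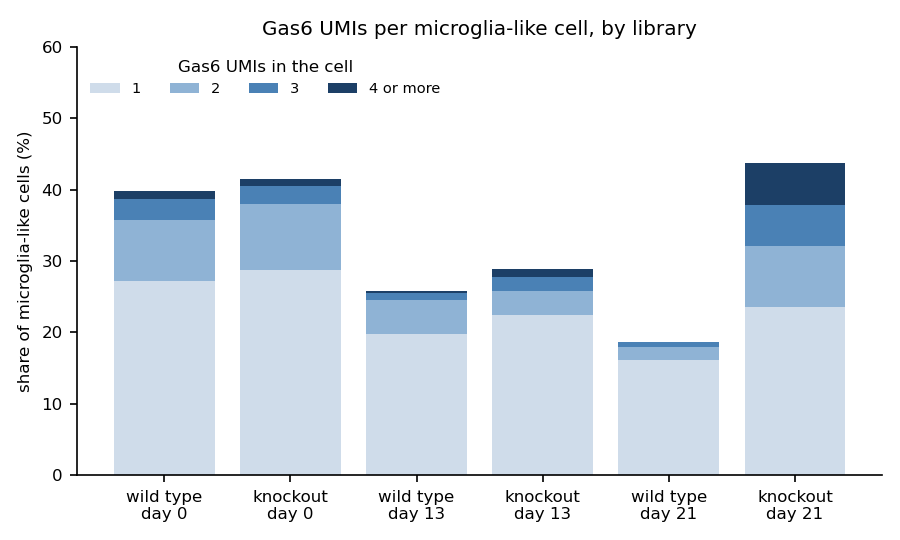
Share of microglia-like cells (percent) by number of Gas6 UMIs in the cell, for each library. KO day 21 is the only library with more than 2% of cells at 4 or more UMIs (5.85%), and WT day 21 has 0% there.

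Each EAE library's microglia-like cells were next split at that library's own median of MHC class II (H2-Aa, H2-Ab1, H2-Eb1 and Cd74 summed) and, separately, of 12 interferon-stimulated genes. Gas6 was lower in the MHC class II-high cells of each library: 89.0 against 121 CPM in WT and 104 against 131 in KO on day 13, and 79.4 against 88.3 in WT and 208 against 390 in KO on day 21. The log2 difference was -0.55 (SE 0.110, adjusted p = 0.0133, edgeR with the library as block), where 0.906% of 8279 genes were called and 0.254% were lower. The call was kept in 6 of 10 alternatives. It was lost without KO day 21, where the difference was -0.28, without WT day 13, with mixed barcodes kept and by DESeq2. In KO day 21, border-associated macrophage markers were at 29.9 CPM in the MHC class II-high cells and 50.3 CPM in the others. These markers were at 5.40 against 9.11 CPM in KO day 13 and 5.39 against 5.79 in WT day 21. WT day 13 went the other way, at 6.90 against 2.08 CPM. The part of border markers in the Gas6 difference was not tested. Axl was higher in the MHC class II-high cells in 3 of 4 libraries, with KO day 13 the exception at 63.5 against 83.3 CPM, and did not pass (0.47, adjusted p = 0.127, edgeR).

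Axl was higher in the interferon-high cells of all 4 libraries, by little in WT on day 13: 108 against 106 CPM there, 85.4 against 61.9 in KO on day 13, 140 against 83.7 in WT and 99.1 against 44.6 in KO on day 21. The log2 difference was 0.63 (SE 0.151, adjusted p = 0.0360, edgeR), where 2.25% of 8261 genes were called and 1.99% were higher. It lost the call without KO day 21 (adjusted p = 0.471, edgeR), without KO day 13 or WT day 21, and by DESeq2. Gas6 went down in 3 libraries and up in KO day 21, at 325 against 272 CPM, with a log2 difference of -0.11. The interferon median of KO day 21 was 0, so there 705 cells were above it and 971 at it. Monocyte markers were higher in the interferon-high cells of each library. On day 13 they were at 681 against 495 CPM in WT and 889 against 782 in KO. On day 21 they were at 1027 against 598 CPM in WT and 259 against 195 in KO. Their part in the Axl difference was not tested.

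**Figure D4:**
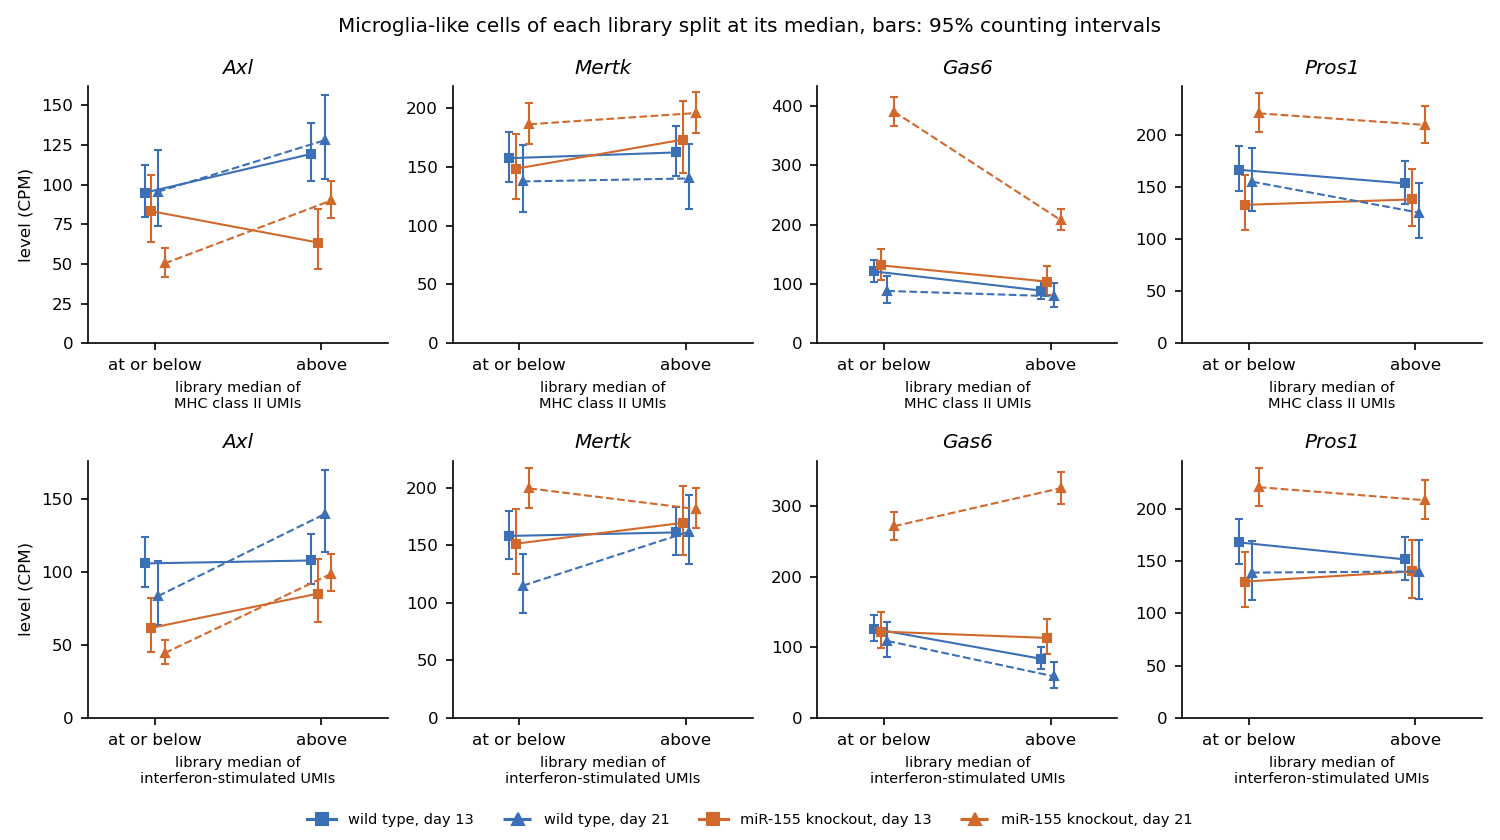
Level of Axl and Gas6 (CPM) in microglia-like cells at or below and above the library's median of MHC class II genes and of interferon-stimulated genes, 1 line per EAE library. All 4 Gas6 lines fall with MHC class II and all 4 Axl lines rise with interferon-stimulated genes, that of WT day 13 only from 106 to 108 CPM.

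In monocyte/macrophage-like cells, the infiltrating phagocytes of EAE, Axl was at 64.7 and 64.1 CPM in WT and KO on day 13 and 42.1 and 47.3 CPM on day 21. Day 13 was above day 21 in both genotypes, and the genotypes of a day were close. The log2 change from day 13 to 21 was -0.57 (SE 0.171, adjusted p = 0.155, edgeR). Mertk went from 12.5 and 13.5 CPM to 4.58 and 1.33 CPM, a log2 change of -1.94 (SE 0.434, adjusted p = 0.0854, edgeR). No member passed, where 1.91% of 9215 genes were called. The KO-to-WT ratio of Axl was 0.989 on day 13 and 1.12 (0.831 to 1.51) on day 21, and that of Pros1 0.698 (0.474 to 1.02) and 0.873. None was 1.5-fold apart, where 3.89% of 6615 and 18.6% of 6885 genes were. The genotype test over both days called 0 of 9215 genes by edgeR and 0 by DESeq2, with 252 at an unadjusted p under 0.05 by edgeR. The lower Axl of KO microglia-like cells had no counterpart in this class, but the difference between the classes was not tested.

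Conventional dendritic-like cells, which include cells known to use Axl or Mertk, gave Axl at 6.37 and 5.95 CPM in WT and 8.74 and 25.4 CPM in KO on days 13 and 21. The KO value of day 21 rests on 13 UMIs and the WT value on 4, a ratio of 4.26 (1.32 to 18.0). It was the only member 1.5-fold apart in that class on that day, where 33.8% of 7248 genes were, and none was on day 13, where 31.9% of 7401 genes were. No member passed the count filter of the genotype test there. It called 0 of 5333 genes by edgeR and 0 by DESeq2, with 302 at an unadjusted p under 0.05 by edgeR. T-like cells gave Axl at 11.7, 18.5 and 14.3 CPM in WT and 14.8, 8.53 and 29.0 CPM in KO on days 0, 13 and 21. The KO-to-WT ratio was 0.460 (0.179 to 1.06) on day 13 and 2.02 (1.13 to 3.49) on day 21, 1.5-fold apart in opposite directions, where 19% of 7482 and 20.9% of 7474 genes were apart. These rest on 8 and 24, and on 19 and 50 UMIs, in KO and WT, and the log2 difference over days was 0.23 (SE 0.385, adjusted p = 0.98, edgeR), where 0.805% of 6953 genes were called.

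Whether the same cell held a receptor and a ligand was read in microglia-like cells thinned to 1500 UMIs. A cell with both Axl or Mertk and Gas6 or Pros1 was found in 17.9%, 9.86% and 10.4% of WT and 18.3%, 11.2% and 14.2% of KO cells on days 0, 13 and 21. The share was highest on day 0 and fell with the levels of Mertk and Pros1. Cells with an Axl UMI had a Gas6 UMI less often than the others in each EAE library: 7.63% against 15.8% in WT and 12.5% against 17.2% in KO on day 13, and 7.32% against 12.4% and 27.5% against 30.5% on day 21. The cells with both were 9 of 118 Axl cells in WT and 5 of 40 in KO on day 13. On day 21 they were 6 of 82 and 42 of 153. Cells with a Mertk UMI went the same way in each EAE library. Their shares with Gas6 were 14.5% against 14.8% in WT and 13.3% against 17.9% in KO on day 13. On day 21 they were 10.7% against 11.9% and 26.4% against 31.5%. These shares describe cells of the same library and were not tested.

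The other genes of the pathway were read from 3 lists: TAM signalling and processing (23 genes), apoptotic cell recognition (24) and engulfment machinery with lipid efflux (18). In microglia-like cells on day 13 against day 0, 3 of the 17 signalling genes tested were higher and 3 lower, 6 of 18 recognition genes were higher and 2 lower, and 2 of 17 engulfment genes were higher and 2 lower. The medians of the lists were -0.18, 0.31 and 0.05 on the log2 scale, beside -0.02 over all genes. Over all genes 26.6% were called, so the counts of the engulfment list were near that share, and nothing particular to the lists is read from them. Among the genes that rose were Socs1 (2.79), the feedback inhibitor of cytokine signalling, and Cd300lf (6.08) and Cd36 (6.93), both receptors for lipids of dying cells. Lgals3 (2.23), the opsonin galectin-3, the high-affinity antibody receptor Fcgr1 (0.90), Rac2 (1.37), which drives actin, and Ucp2 (0.96), a mitochondrial carrier tied to engulfment, also rose. On day 21 against day 0 the counts were 3 higher and 1 lower, 2 and 1, and 2 and 1, where 11.2% of all genes were called, with Cd36 at 5.25, Cd300lf at 4.53 and Socs3 lower at -1.13. Monocyte markers in the class also rose, from 92.1 and 120 CPM on day 0 to 225 to 835 CPM in the EAE libraries. Their part in the changes of these list genes was not tested.

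Between genotypes the test called 0 genes of the 3 lists in microglia-like cells. On day 21 alone, 1.5-fold or more apart and higher in KO were Ggcx (2.15), the enzyme that carboxylates Gas6 and Pros1, Abca1 (1.57), the cholesterol exporter, and Stab1 (1.51), a phosphatidylserine receptor. Among those lower in KO were Socs1 (0.314), Cd36 (0.212), Cd300lf (0.292), Lgals3 (0.576), Anxa1 (0.350), a phosphatidylserine-binding protein of dying cells, and Rac2 (0.608). These were 1 and 3 of 15 signalling genes measured, 1 and 3 of 17 recognition genes and 1 and 1 of 15 engulfment genes, where 10.6% of all genes were higher and 7.5% lower in KO. Monocyte markers in the same microglia-like cells were at 816 CPM in WT and 225 in KO, and T-cell markers at 367 and 30.4 CPM, and their part in these list genes was not tested. On day 13, Anxa1 (2.30) and Lgals3 (2.22) were higher in KO, and Mfge8 (0.639), a bridging protein like Gas6, was lower. Anxa1 and Lgals3 were thus on the other side of WT on day 21, a difference between days that was not tested. Monocyte markers in the class likewise changed sides, at 589 CPM in WT and 835 in KO on day 13. Their part in the day 13 values was not tested.

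In monocyte/macrophage-like cells on day 21 against day 13, 4 of 17 recognition genes and 0 of 17 engulfment genes were lower, and none of the genes of either list was higher, where 1.91% of all genes were called. The recognition genes were the complement components C1qa (-1.82), C1qb (-1.88) and C1qc (-1.96), which opsonise dying cells, and Scarf1 (-1.68), a receptor for C1q. Mertk had the same sign without passing the test. In interferon-high microglia-like cells Socs1 (0.73), Fcgr1 (0.31) and Cd300lf (0.52) were higher together with Axl. Monocyte markers were also higher in those cells in each EAE library, as given above. Their part in these list genes was not tested.

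The genes most like each member were found by Pearson correlation of log2(CPM + 1) over 39 units of class and library, among 7353 genes. The units share libraries and the microglia-like class sets much of the spread, so the values are a description. Among the genes closest to Mertk were Itgb5 (0.94), Pla2g15 (0.93), C1qb (0.92) and C1qa (0.91). Among those closest to Gas6 were Sparc (0.94), Olfml3 (0.94), Tanc2 (0.92) and Sall1 (0.91), of which Sparc, Olfml3 and Sall1 are among the markers that defined the class. For Pros1 the nearest were Man2b1 (0.94), 0610040J01Rik (0.91), Qk (0.91), Stard3 (0.90) and Adap2os (0.90). Axl had other neighbours and lower values: Phf11d (0.83), Fcgr1 (0.83), Pid1 (0.81), Znfx1 (0.80) and Clcn7 (0.80). Among the members, Mertk with Gas6 gave 0.87, Mertk with Pros1 0.85 and Gas6 with Pros1 0.71, while Axl gave 0.59 with Mertk, 0.59 with Pros1 and 0.48 with Gas6.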

How the data were processed

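For each of the 6 libraries the authors deposited raw UMI counts, whole numbers by gene and barcode. The submitters' processing notes name Cell Ranger 2.0.2 and mm10; how introns, multi-mapped reads or empty droplets were handled is not stated in any source read here. Barcodes with at least 200 genes and at most 10% mitochondrial counts were kept, which removed 23 of 20030. A class was assigned from the number of its marker genes with a count (for example 5 of the microglia and 4 of the T markers). The gate of the conventional dendritic-like class was 3 of 8 markers. A barcode past no gate but with at least 2 of these markers was also put in that class. Its 420 cells had a median of 2 dendritic and 3 monocyte/macrophage markers. Barcodes meeting more than 1 gate (3404) and the remaining barcodes meeting none (1034) were set aside. No doublet caller was run, and classes under 50 cells in a library were not used. Class sums of counts were tested with edgeR 4.0.16 (R 4.3.3, TMM, filterByExpr, glmQLFTest, Benjamini-Hochberg at 0.05), with day, genotype or library as block as stated in the text. DESeq2 1.42.0 was an alternative, and Leiden clusters came from scanpy 1.11.5 with 2000 variable genes at resolution 1. The fits were tested on simulated data. Poisson, Clopper-Pearson and conditional 95% intervals cover counting error only, and library totals of 6321841 to 24243660 counts set that precision.

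Named genes were the 5 members, at most 8 list genes per comparison by smallest p, and the 5 nearest genes by correlation, some of which are not reported here. The genes 1.5-fold apart within a day, the cells with 4 or more Gas6 UMIs, the subsets free of other cells' markers, the cuts at the WT median and the single Leiden clusters were chosen after seeing the data. The members and gene lists were chosen with earlier results of these data known, so no pattern here is independent of them. Positions and promoters are those of GRCm38, and the coding proteins were not used here.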

Additional observations from a re-analysis of the deposited data

How the results depend on the processing

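No paired analysis was possible because every group held 1 library, so replicate numbers pair nothing beyond the day, which is already a block in the genotype test. Of 390 values of single members under the alternatives, 323 stayed on the same side, 19 lost and 22 gained the call, and 26 changed sign. Of 130 values within a day, 109 moved by less than their counting error. Sign changes, on the log2 scale, came with mixed barcodes kept for T-like Axl (-0.084), the monocyte genotype effects of Axl (-0.050) and Mertk (0.074), Axl on day 21 against 13 (-0.033) and Mertk by interferon genes (-0.055). They came with Leiden classes for the monocyte genotype effects of Axl (-0.18) and Mertk (0.16), Mertk in monocyte against dendritic (-0.26) and Axl within cluster 4 on day 21 (0.070), and with DESeq2 size factors for Axl on day 21 against 13 (-0.00105). Leaving out 1 library in turn gave these ranges where the sign changed: for genotype, microglial Mertk -0.012 to 0.19, microglial Pros1 -0.11 to 0.25 and T-like Axl -0.70 to 0.91; for Gas6 against day 0, -0.83 to 0.14 on day 13 and -0.71 to 0.98 on day 21; for day 21 against 13, Axl -0.19 to 0.20, Mertk -0.15 to 0.25, Gas6 -0.31 to 1.38 and Pros1 -0.075 to 0.58; by interferon genes, Gas6 -0.51 to 0.00873 and Pros1 -0.050 to 0.00625. 

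The number of members called was, with no count filter, 1 (microglial genotype), 3 (day 21 against 0), 1 (day 21 against 13), 1 (monocyte days) and 2 (MHC class II). With Leiden classes it was 2 (day 21 against 0), 2 (monocyte days) and 1 (monocyte against dendritic). By DESeq2 it was 1 (monocyte against dendritic), 0 (MHC class II) and 0 (interferon), with mixed barcodes kept 1 (monocyte against dendritic) and 0 (MHC class II), and with only the outer MHC class II cells 2. Leaving out 1 library gave 1 to 4 on days 13 and 21 against 0, 0 to 2 for day 21 against 13 and MHC class II, 3 to 4 for microglia against monocyte, 1 to 2 for monocyte against dendritic and 0 to 1 for interferon. Within a day, 1 member in place of 0 was 1.5-fold apart on day 13 with mixed barcodes, without T-marker cells, above the WT MHC class II median, at or below the WT interferon median and in cluster 2, and on day 0 in cluster 2. On day 21, 1 in place of 3 was apart without monocyte-marker cells and at or below the WT MHC class II median. Over all genes, leaving out a library took the microglial genotype calls from 3 to between 16 and 120, those of day 13 against 0 from 2769 to between 932 and 4142 and those of day 21 against 0 from 1172 to between 385 and 2187. The cause of these shifts was not tested. No library could be left out of the monocyte and dendritic genotype or day tests, which then have no residual degrees of freedom.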

Other observations

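The 98 KO microglia-like cells of day 21 with 4 or more Gas6 UMIs were set beside the other KO cells of that library, as a description with no test, since Gas6 chose them. Among the genes highest in them by ratio were Igf1, a growth factor (54.9 against 4.97 CPM), the chemokine Cxcl10 (224 against 37.9 CPM), Folr2 (119 against 27.3 CPM) and Mrc1 (93.7 against 21.2 CPM), which are markers of tissue and border macrophages, and Lgals3 (267 against 63.6 CPM). Among the lowest were Cd74, the MHC class II invariant chain (1447 against 4234 CPM), and Selplg, an adhesion ligand (892 against 2422 CPM). In the small Leiden cluster numbered 3, the 54 KO cells of day 21 had Gas6 at 618 CPM and Axl at 167 CPM. Of its 68 cells 88.2% met the microglia gate and they are counted in the Leiden microglial class, but its leading genes, among them Lpl, Spp1, Gpnmb, Igf1, Folr2 and the border-macrophage marker Ms4a7, hold no microglial marker, so it is given no cell type name.

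Monocyte/macrophage-like cells with a UMI of Arg1, the arginase of tissue-repair macrophages, had more of both receptors than the other cells of their library. On day 13 Axl was at 107 against 56.7 CPM in WT and 99.2 against 56.9 CPM in KO, and Mertk at 31.0 against 8.90 CPM and 29.8 against 10.2 CPM, over 95 and 98 cells with Arg1. On day 21 in WT, with 66 such cells, Axl was at 80.9 against 38.6 CPM and Mertk at 18.4 against 3.33 CPM. In KO on day 21 only 6 cells had an Arg1 UMI, too few for a value. Median depths with and without Arg1 were 6583 and 6225 UMIs in WT and 5975.5 and 5226 in KO on day 13, and 3959.5 and 4013 in WT on day 21. Arg1 is also a marker that helped define the class.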
